A study of Rattus norvegicus with 6 samples.

Results

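Isolated CpGs are CpG sites with no near neighbour, here among the positions listed in the files. They were taken as positions on chromosomes 1 to 20 that had no other listed CpG within 500 nucleotides (nt) on either side and a coverage of at least 10 reads in each of the 6 animals. This left 6867 isolated CpGs of 21344245 listed positions, and of 4663256 positions with that coverage. A CpG that no file listed was not seen as a neighbour, since the genome sequence of the build was not used, so some of them may have an unlisted neighbour nearby. Only position and coverage were used to choose them, so their methylation was free to differ from that of other CpGs. The data were WGBS (whole-genome bisulfite sequencing, which reads methylated cytosines as C and unmethylated ones as T) of hippocampi from Sprague-Dawley (CD1 Sprague-Dawley in the study's methods) rat pups at postnatal day 15. The 3 iron-deficient pups came from dams on a diet with 4 ppm iron from gestational day 2 to postnatal day 7 and with 200 ppm afterwards, and the 3 iron-sufficient pups came from dams kept on 200 ppm. Every pup was the offspring of a purchased pregnant dam, and litter and sex are not given in the sources used here.

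A CpG is the main site at which mammalian DNA is methylated, and a methylated cytosine is lost by deamination to thymine more readily than an unmethylated one. Most of the genome has therefore become poor in CpGs, and those that remain there are sparse and usually methylated. Dense clusters of CpGs at promoters, the CpG islands, are usually kept free of methylation. Maintenance enzymes copy the pattern at each cell division, and CpGs that lie close together on a molecule tend to share a state. The hippocampus holds neurons and glia, and in whole tissue a change in the share of a cell type cannot be told apart from a change in methylation within cells.

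Isolated CpGs were rare and less often well covered than others. Of the 75525 isolated positions in the listing (0.354% of all), 32.2% were listed in all 6 files and 9.09% had a coverage of at least 10 in every animal. For positions with a neighbour within 500 nt, these shares were 55.7% and 21.9%. A larger part of the isolated positions was listed for a single animal, at 8.91% compared with 1.26%. The median distance from an isolated CpG to its nearest listed neighbour was 597 nt (quartiles 539 and 698), and to the listed CpG on its farther side 853 nt. In 376 isolated CpGs the nearest neighbour was beyond 1000 nt, and in 41 it was beyond 2000 nt. In the listing, 116 adjacent pairs were both isolated CpGs with this coverage. No expected number was computed for this count.

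Isolated CpGs were spread over all 20 autosomes, but unevenly. Chromosome 2 held 879 of them and chromosome 1 held 831, compared with 44 on chromosome 12. Per 1000 covered CpGs, chromosome 2 had 2.57 isolated CpGs and chromosome 12 had 0.294, and these chromosomes also had the fewest and the most listed CpGs per Mb, 7051 and 12364. In windows of 1 Mb, the quartile of windows with the fewest listed CpGs held 47.9% of the isolated CpGs and 8.6% of the covered CpGs. The densest quartile held 6.23% and 45.6%. The most isolated CpGs in a window were 20 of 779 covered CpGs, on chromosome 2 from 187 Mb.

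The isolated CpGs were mostly methylated in every animal. Iron-sufficient replicates 1, 2 and 3 had mean levels over these CpGs of 75%, 74.6% and 75.2%. Iron-deficient replicates 1, 2 and 3 had 75.2%, 75.3% and 75.8%. The 6 animals thus lay close together, and the groups overlapped. Iron-sufficient pups averaged 74.9% ± 0.329 (SD, n = 3), and iron-deficient pups 75.4% ± 0.349 (SD, n = 3). The difference of 0.483 percentage points, higher with iron deficiency, was not separated from the spread between animals (two-sided exact permutation test, p = 0.2, adjusted p = 0.4 over 10 tests, where 0.1 is the smallest p for 3 against 3). The difference depended on how the level was computed. Its sign turned, to -0.0259 percentage points, when a coverage of at least 20 was asked of every animal. With summed reads in place of the mean of percentages it was 0.912 percentage points and the groups did not overlap (exact permutation test, p = 0.1, the smallest possible). With isolation at 1000 nt it was 2.09 percentage points (exact permutation test, p = 0.2). With only neighbours listed in at least 2 files counted, it was 0.537 percentage points (exact permutation test, p = 0.1). By chromosome, the mean of the isolated CpGs was higher in the iron-deficient group on 13 of 20 chromosomes, with differences between -1.3 and 2.3 percentage points.

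CpGs with a near neighbour gave the comparison for this level. Isolated CpGs were 11.1 percentage points above the 4656389 covered CpGs that had a neighbour within 500 nt, with a range of 10.7 to 11.3 between animals and a higher value in 6 of 6 (exact sign-flip permutation test over animals, two-sided, p = 0.031, the smallest it can give, adjusted p = 0.0781). The adjusted value does not pass 0.05. No test of this family could, since the smallest p of 0.031 (sign-flip) and 0.1 (3 against 3) stay above it when adjusted over 10 tests. The size of the gap moved with the coverage asked for, from 5.98 percentage points where only the coverage in that animal counted, to 8.95 at a minimum of 5 reads in every animal and 16.6 at 20 reads. The level was lowest where neighbours were closest. CpGs whose nearest neighbour was at 1 to 10 nt had a mean of 49.1% ± 0.33 (SD over 6 animals), and those beyond 10 and up to 25 nt had 68.3% ± 0.429. The mean was 72.6% ± 0.578 beyond 50 and up to 100 nt, and 75.3% ± 0.571 beyond 100 and up to 250 nt. From there the level was nearly flat, with 75.9% ± 0.575 up to 500 nt and, among the isolated CpGs, 75.4% ± 0.249 up to 600 nt.

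**Figure D1:**
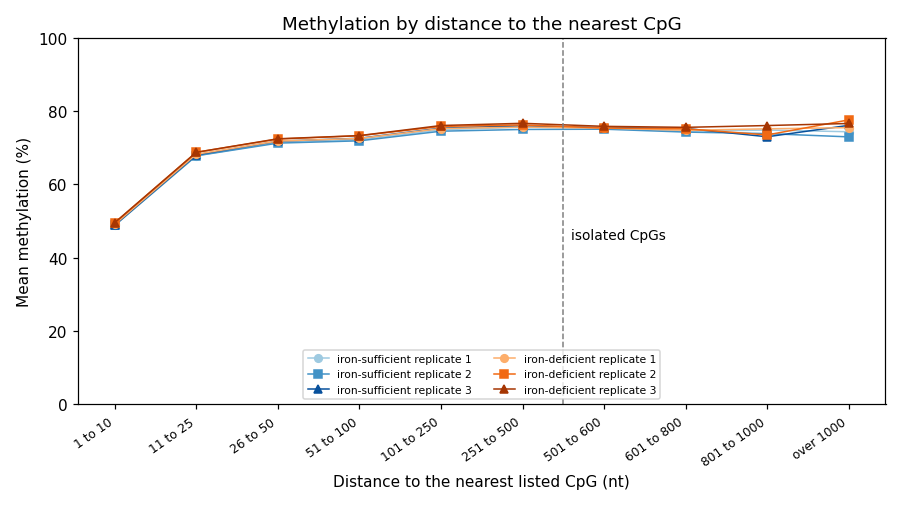
Mean methylation (%) of covered CpGs by distance to the nearest listed CpG (nt), with a line and marker for each of the 6 animals and a dashed line at 500 nt. The lines climb from 49.1% at 1 to 10 nt to 75.3% in the class that ends at 250 nt, and among the isolated CpGs to the right of the dashed line the class means over animals lie between 74.4% and 75.5%.

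The most similar CpGs were the 406002 whose nearest neighbour was more than 100 and at most 500 nt away, called moderately spaced CpGs here. Isolated minus moderately spaced CpGs gave -0.221 percentage points on average, with a range of -0.603 to -0.00453 and a lower value in 6 of 6 animals (exact sign-flip permutation test, p = 0.031, adjusted p = 0.0781). This small difference was close to 0 with a coverage of at least 5 (-0.0348, exact sign-flip permutation test, p = 0.656) and with summed reads (-0.0395, exact sign-flip permutation test, p = 0.5). With a coverage of at least 20 it was -0.962 percentage points (exact sign-flip permutation test, p = 0.031). Its size thus rested on the settings. With isolation set at 250 nt, both sets changed. CpGs beyond 250 nt were then compared with those beyond 100 and up to 250 nt, and this other contrast gave 0.464 percentage points. At the line itself, the CpGs just outside (beyond 450 and up to 500 nt, 3227 CpGs) had a mean of 74.7% ± 0.773 (SD over 6 animals) and those just inside (beyond 500 and up to 550 nt, 2126 CpGs) 75.6% ± 0.39. Among the isolated CpGs, the comparison set up for distance was that of the farthest with the nearest class. The 376 beyond 1000 nt had a mean of 75.5% ± 1.66 (SD over 6 animals), 0.107 percentage points above the isolated CpGs at up to 600 nt, with 4 of 6 animals higher (exact sign-flip permutation test, p = 0.875, adjusted p = 0.9). In the classes between them, which were not tested, the mean was 74.9% ± 0.49 (SD over 6 animals) beyond 600 and up to 800 nt, lower than at up to 600 nt in 6 of 6 animals. It was 74.4% ± 1.15 (SD over 6 animals) beyond 800 and up to 1000 nt, lower in 5 of 6. With isolation set at 250 nt, CpGs beyond 500 nt minus those at up to 350 nt gave -0.587 percentage points (exact sign-flip permutation test, p = 0.031). The group difference at isolated CpGs minus that at CpGs with a neighbour within 500 nt was -0.179 percentage points, which was within the spread between animals (exact permutation test, p = 0.5, adjusted p = 0.833). With a coverage of at least 20 it was -0.612 percentage points (exact permutation test, p = 0.1, the smallest possible).

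The setting of the isolated CpGs was examined by the number of listed CpGs in the surrounding Mb. Their mean was 74.4% ± 0.577 (SD over 6 animals) in the sparsest quartile of windows and 77.1% ± 1.13 in the densest. The means of the quartiles in order were 74.4%, 75.4%, 76.3% and 77.1%, and the ranges over animals in the end quartiles did not overlap, at 73.6% to 75.4% and 75.5% to 78.5%. Moderately spaced CpGs had 75.4%, 75.4%, 75.8% and 75% in the same quartiles, and CpGs with a neighbour within 500 nt had 73.9%, 67.5%, 64.6% and 60.6%. These differences between quartiles were not tested. By chromosome, the mean of the isolated CpGs was lowest on chromosome 10, at 69.6% ± 1.09 (SD over 6 animals, 153 CpGs), and highest on chromosome 19, at 80.7% ± 2.24 (100 CpGs).

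Behind these similar means, the single levels differed greatly between animals. Iron-sufficient replicates 1, 2 and 3 had 28.1%, 51.2% and 43.6% of the isolated CpGs at exactly 100%. Iron-deficient replicates 1, 2 and 3 had 37.8%, 46.4% and 34.2%. At the other end, exactly 0% was listed for 2.85%, 9.82% and 6.09% of the isolated CpGs in iron-sufficient pups and for 4.82%, 7.91% and 3.35% in iron-deficient pups. Replicate 2 of each group was highest at both ends, and the groups overlapped at both. These animals also had the fewest listed autosomal CpGs, 16272312 and 17768035, compared with 18629251 to 20414173 in the other animals. The part of that in the shares was not tested.

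**Figure D2:**
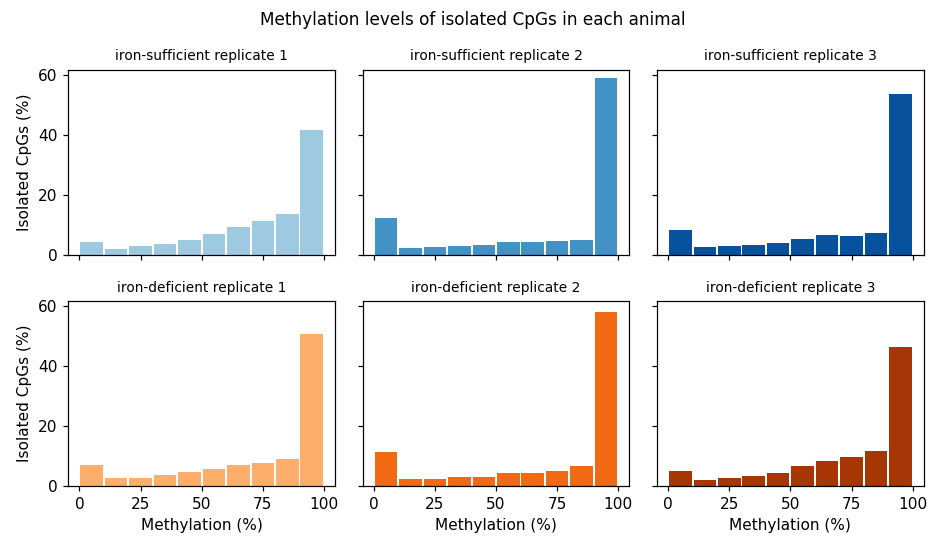
Share of the 6867 isolated CpGs (%) in steps of 10 percentage points of methylation, with a panel for each animal. The step from 90% to 100% holds 41.5% of the isolated CpGs in iron-sufficient replicate 1 and 58.7% in iron-sufficient replicate 2, and the step from 0% to 10% holds 4.16% and 12.2%.

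The share of isolated CpGs with a level of at least 80% averaged 59.8% ± 4.35 (SD, n = 3) for iron-sufficient pups and 60.6% ± 3.41 (SD, n = 3) for iron-deficient pups (exact permutation test, p = 0.9, adjusted p = 0.9). The share under 20% was 10.4% ± 4.21 and 10% ± 3.32 (exact permutation test, p = 0.9, adjusted p = 0.9). Both differences changed sign when single animals were left out. Compared within animals with moderately spaced CpGs, the share of at least 80% differed by -0.671 percentage points at isolated CpGs and was lower in 6 of 6 animals (exact sign-flip permutation test, p = 0.031, adjusted p = 0.0781). With isolation set at 250 nt, where the comparison set also ended at 250 nt, it was 0.272 percentage points higher. With a coverage of at least 20 the difference was -1.56 percentage points (exact sign-flip permutation test, p = 0.031). The share under 20% differed by -0.138 percentage points, with 3 of 6 animals on each side (exact sign-flip permutation test, p = 0.688, adjusted p = 0.9).

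Coverage was compared because it sets the precision of each percentage. The median coverage of isolated CpGs came to 29, 34 and 39 reads for iron-sufficient pups, and for iron-deficient pups it came to 39, 50 and 25 reads. CpGs with a neighbour within 500 nt had 32, 35 and 43 and 43, 51 and 27 reads. The ratio was below 1 in 6 of 6 animals, with a mean log2 ratio of -0.101 (exact sign-flip permutation test, p = 0.031, adjusted p = 0.0781). The coverage minimum of 10 was applied to both sets, and with a minimum of 20 the log2 ratio was 0.0219.

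The spread of the isolated CpGs between animals was several times that of counting error. It was taken as the SD of an animal around the level shared by the 6 animals at each CpG, estimated from products of differences to pairs of the other animals. Iron-sufficient replicates 1, 2 and 3 had 19.3, 29.5 and 26.3 percentage points. Iron-deficient replicates 1, 2 and 3 had 24.1, 28.3 and 21.4. Counting error alone, from the coverage, would give 6.16 to 7.75 percentage points. A spread this large is that of 1.7 to 4 independent reads per CpG, where the coverage was 25 to 50. Among moderately spaced CpGs the corresponding number was 1.56 to 4.07 reads, so the isolated CpGs did not stand apart in this. Differences between animals and reads that are copies of a molecule both enter this number, and they cannot be told apart in these files.

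**Figure D3:**
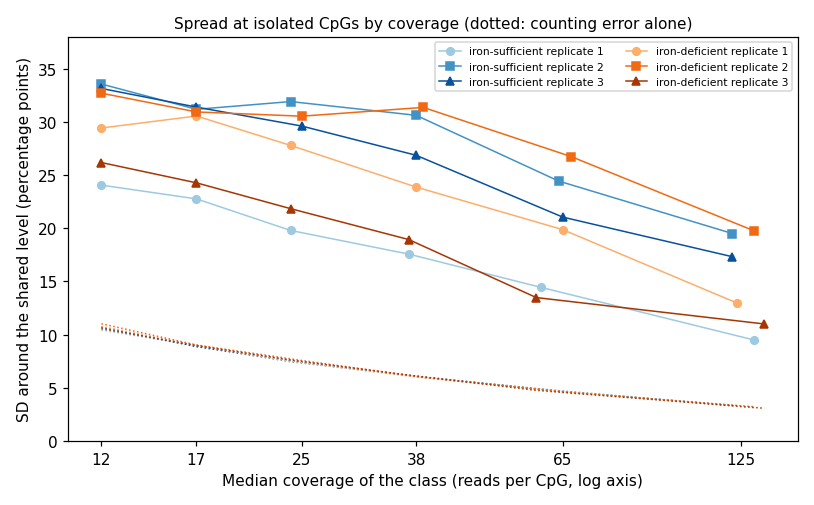
SD of the isolated CpGs around the level shared by the 6 animals (percentage points) against the median coverage of 6 coverage classes (reads per CpG, log axis), with a solid line for each animal and dotted lines for counting error alone. In iron-sufficient replicate 1 the SD goes from 24 percentage points at 10 to 14 reads to 9.49 at 100 or more, and all solid lines lie above the dotted ones.

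The spread was smaller at higher coverage but stayed above counting error. In iron-sufficient replicate 2 the SD was 33.6 percentage points at 10 to 14 reads and 19.5 at 100 or more, where counting error gives 10.7 and 3.33. In iron-deficient replicate 3 it was 26.2 and 11 percentage points. Over the 6 animals, the range between the lowest and the highest animal had a median of 52 percentage points (quartiles 27.8 and 80.7) at isolated CpGs. For the 182 isolated CpGs with a mean coverage of at least 100 the median range was 26.8 percentage points, and for the 1418 with a mean coverage under 30 it was 59.7. In 1321 isolated CpGs (19.2%) an animal had 10% or less and another 90% or more, compared with 19.1% of the moderately spaced CpGs. This share was 28.3% at a mean coverage under 30 and 1.65% at 100 or more.

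Pearson's r between animals across the 6867 isolated CpGs was 0.327 to 0.419 within a group and 0.32 to 0.472 between groups. The ranges within and between the diets overlapped. For the moderately spaced CpGs, r was 0.33 to 0.45 and 0.317 to 0.502. These are descriptions across CpGs that share library and depth.

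Adjacent CpGs resembled each other less the farther apart they lay, and isolated CpGs hardly resembled the covered CpGs next to them on either side. Among all pairs of adjacent covered CpGs, the median over animals of Pearson's r within an animal was 0.809 at a gap of 2 to 50 nt, 0.516 at up to 100 nt and 0.24 beyond 250 and up to 500 nt. Beyond 500 and up to 1000 nt it was 0.113 for all 467395 pairs and 0.0295 (0.0119 to 0.0555 over animals) for the 3016 pairs holding an isolated CpG. Pairs of moderately spaced CpGs had 0.0554 (0.0276 to 0.0844 over animals) at the same gap. The ranges overlapped, although within each animal the pairs holding an isolated CpG had the lower r. With the mean of the 6 animals in place of single animals, r at this gap was 0.199 for all pairs and 0.0493 for pairs holding an isolated CpG. Beyond 1000 and up to 2000 nt, the median over animals was 0.027 for the 3981 pairs holding an isolated CpG. It was 0.0246 for pairs of moderately spaced CpGs and 0.0465 for all pairs, so the isolated CpGs did not stand apart there. Pairs at short gaps can lie on the same reads, and the points of each r share library and depth.

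**Figure D4:**
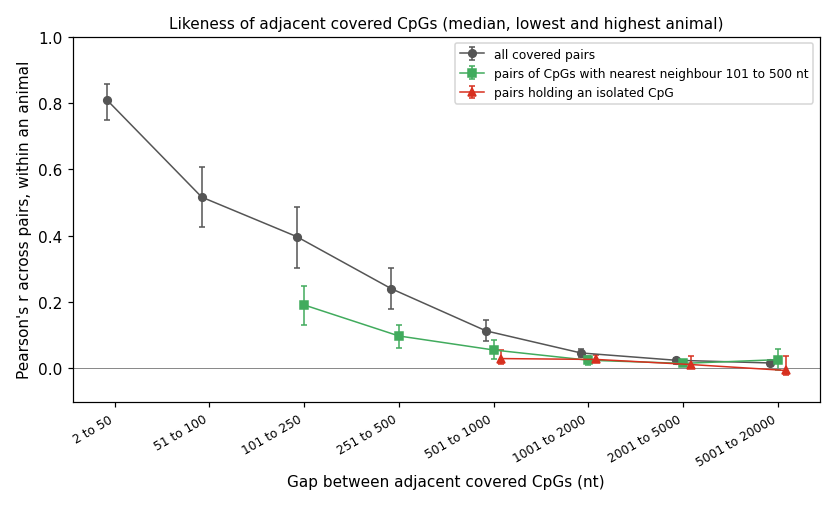
Pearson's r of methylation across pairs of adjacent covered CpGs within an animal, by the gap between them (nt), with markers at the median of the 6 animals and bars from the lowest to the highest animal. The r of all pairs goes from 0.809 at 2 to 50 nt to 0.113 in the class that ends at 1000 nt, where pairs holding an isolated CpG have 0.0295.

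The wider surroundings gave a similar picture. For the 4410 isolated CpGs with at least 5 other covered CpGs within 5000 nt, r between their mean level and that of these other CpGs was 0.0808. The median level of the surroundings was 78.4% (quartiles 70.4 and 84.7), so that most isolated CpGs lay in methylated DNA whatever their own level.

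A set of 82 isolated CpGs (1.19%) was under 20% in all 6 animals, against 11.4% of the CpGs with a neighbour within 500 nt and 1.03% of the moderately spaced CpGs. They lay on 19 chromosomes, with 16 on chromosome 2 and 11 on chromosome 5. Their surroundings were methylated, with a median of 77.2% (quartiles 71 and 82.7) over the 54 that had at least 5 other covered CpGs within 5000 nt, and 1 of these 54 had surroundings under 50%. For 4 of the 82 (4.88%) the nearest covered CpG was under 20%, compared with 2.74% of all isolated CpGs. Their median mean coverage was 41.8 reads, close to the 39 reads of all isolated CpGs.

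In 37 of the isolated CpGs (0.539%) no methylated read was listed in any animal, compared with 0.398% of the moderately spaced CpGs and 3.87% of those with a neighbour within 500 nt. Their reads over the 6 animals numbered 127 to 589, with a median of 251. If reads are independent, a count of 0 among 251 allows a level of up to 1.2%. The spread of all isolated CpGs was that of 1.7 to 4 independent reads per CpG in an animal. The true limits may therefore be much higher than those given here. The 4 that come first by chromosome and position lay on chromosome 1 (rn4) at 104085502, 108072669, 133916150 and 165500305. The CpG at 104085502 had 0 of 240 reads methylated, with 22, 25 and 57 reads in iron-sufficient pups and 50, 50 and 36 in iron-deficient pups, which allows up to 1.25%. The CpG at 165500305 had 0 of 199 reads methylated, which allows up to 1.51%, while 8 other covered CpGs within 5000 nt had a mean of 84.9%. After bisulfite treatment an unmethylated cytosine and a genomic thymine read alike, so the files alone do not say which of them these sites hold. The same limit applies to a level of 0% in a single animal, as at the CpGs named below for their difference or range.

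At the upper end, 1131 isolated CpGs (16.5%) had at least 80% in all 6 animals, and 297 (4.33%) had 100% in all. The moderately spaced CpGs had 17.6% and 4.95%. Between 20% and 80% in all 6 animals were 65 isolated CpGs (0.947%), compared with 0.749% of the moderately spaced CpGs and 0.529% of the CpGs with a neighbour within 500 nt. These differed in coverage, with a median mean coverage of 68 reads compared with 39 for all isolated CpGs. Of the 65, 23 (35.4%) were among the 1% of covered CpGs with the highest mean coverage, compared with 2.59% of all isolated CpGs. Their level still varied, with a median range between animals of 37.3 percentage points compared with 52 for all isolated CpGs and 8 for the 1131. The part of coverage in these levels was not tested.

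The 4 isolated CpGs farthest from any other differed widely in level, coverage and range. The CpG on chromosome 3 at 167212047 (rn4) had its nearest listed neighbour 13632 nt away. Iron-sufficient pups had levels of 72.2%, 53.7% and 32.7% and iron-deficient pups 47.4%, 57.1% and 33.3%, with 38 to 245 reads. The groups overlapped widely. The CpG on chromosome 15 at 28837237, 6454 nt from its neighbour, had by far the most reads, 938 to 2616. Iron-sufficient pups had 87.6%, 85.6% and 88% and iron-deficient pups 87.9%, 89.8% and 89.6%, a range of 4.28 percentage points. The CpG on chromosome 11 at 2092858 was at 84% to 100% in the 6 animals with 18 to 36 reads. The CpG on chromosome 13 at 30735676 had 100%, 76.7% and 0% in iron-sufficient pups and 100% in each iron-deficient replicate, with 18 to 41 reads.

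Differential methylation between the diets was tested at each covered CpG on chromosomes 1 to 20 with the study's coverage-weighted test, and a CpG was called with a difference of at least 10 percentage points and an unadjusted p of at most 0.05. Of the isolated CpGs, 309 (4.5%) were called, where the background over all 4663256 CpGs was 3.21%. Higher methylation in the iron-deficient group was called at 168 isolated CpGs (2.45%, background 1.64%), and lower methylation at 141 (2.05%, background 1.57%). Of the moderately spaced CpGs, 4.07% were called, closer to the share of the isolated CpGs than to the background. Of the isolated CpGs whose mean was 20% to under 80%, 237 of 3034 (7.81%) were called, compared with 65 of 3605 (1.8%) at 80% or more and 7 of 228 (3.07%) under 20%. Over all covered CpGs the shares of these classes were 6.89%, 1.56% and 0.961%, in the order given, and over moderately spaced CpGs 6.96%, 1.9% and 2.21%. This mean is over all 6 animals, so a large difference itself moves it toward the middle. The absolute difference of the called isolated CpGs had a median of 40.9 percentage points and went from 10.2 to 90.5.

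Adjustment over the whole table left few calls or none. After Benjamini-Hochberg adjustment over all CpGs tested, 0 isolated CpGs were called with the weighted test (background 0.00131%), and the lowest adjusted p was 0.801, although 319 (4.65%, background 3.35%) had an unadjusted p of at most 0.05. With limma on log2 ratios, 0 had an adjusted p of at most 0.05 (background 0%, lowest 0.993) and 365 an unadjusted one (5.32%, background 4.58%). A quasi-binomial model gave 1 adjusted call (0.0146%, background 0.00808%), with 521 (7.59%, background 7.26%) at an unadjusted p of at most 0.05. That CpG, on chromosome 8 at 5747157 (rn4), was also among the 309 and is named for its adjusted call. It had 30%, 33.3% and 33.3% in iron-sufficient pups with 10, 21 and 27 reads, and 100% in all iron-deficient replicates with 27, 20 and 17 reads. The dispersion of this model had no lower limit, and the animals within each group differed here by less than counting error would give. The adjusted p rests on that small spread. With a difference of at least 10 percentage points and an unadjusted p of at most 0.05, limma by itself called 364 isolated CpGs (5.3%, background 4.56%). The quasi-binomial model by itself called 439 (6.39%, background 5.45%). Of the 309, 176 were also called by limma, and 141 by both limma and the quasi-binomial model. These tests used the same animals, and the share of joint calls over all covered CpGs is not given. A difference of at least 10 percentage points was itself common, at 55.6% of the isolated CpGs, 54.7% of the moderately spaced CpGs and 46.6% of the CpGs with a neighbour within 500 nt. The isolated CpGs had a median difference of 0 (quartiles -10.9 and 12.6).

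Without regard to a test, the animals of the groups did not overlap at 436 isolated CpGs (6.35%, background 5.11%). Both called and without overlap were 221 of the 6867 isolated CpGs (3.22%, background 2.27%), 121 of them higher (1.76%, background 1.18%) and 100 lower (1.46%, background 1.09%) with iron deficiency. The largest increases and decreases among these were chosen by their difference and are given as a description. Their coordinates are in rn4, and genes are not given because no annotation of that build was used.

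The largest increase was on chromosome 4 at 65377093, 575 nt from the next CpG, with a weighted difference of 90.5 percentage points. Iron-sufficient replicates 1, 2 and 3 had 46.2%, 0% and 0%, with 13, 28 and 22 reads, and each iron-deficient replicate had 100%, with 41, 46 and 34 reads. The increase on chromosome 16 at 34536973 was from 93.8%, 1.92% and 0% to 100% in each animal, so iron-sufficient replicate 1 lay next to the iron-deficient group. Its reads were 16, 52 and 48 in iron-sufficient pups and 21, 78 and 17 in iron-deficient pups. On chromosome 9 at 46208066, 21.4%, 0% and 0% in iron-sufficient pups stood against 100%, 100% and 58.3%. Here the reads were 28, 34 and 31 against 25, 13 and 12. On chromosome 6 at 121748400, 35.7%, 0% and 0% stood against 90.5%, 100% and 85.7%, with 14, 23 and 12 reads against 21, 38 and 28. In each of these 4 CpGs, iron-sufficient replicate 1 was the highest of its group and replicate 3 was at 0%.

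The largest decrease was on chromosome 1 at 200504222, with a weighted difference of -85.8 percentage points. Iron-sufficient replicates 1, 2 and 3 had 90.9%, 100% and 81.2%, with 22, 29 and 16 reads, and iron-deficient replicates 1, 2 and 3 had 0%, 9.23% and 10%, with 29, 65 and 10 reads. Both groups were narrow here, with SDs of 9.38 and 5.56 percentage points. On chromosome 13 at 34373430 the iron-sufficient replicates were all at 100%, and the iron-deficient ones at 8%, 0% and 57.1%. The reads there were 24, 19 and 13 against 25, 27 and 14. On chromosome 17 at 20235374, 97%, 94.7% and 80% stood against 1.72%, 0% and 33.3%, with 67, 38 and 30 reads against 58, 23 and 27. On chromosome 15 at 19309768, 92.3%, 100% and 100% stood against 19.2%, 0% and 30.8%, with 13, 13 and 67 reads against 26, 26 and 26. In all 4 of these CpGs, iron-deficient replicate 3 was the highest of its group.

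**Figure D5:**
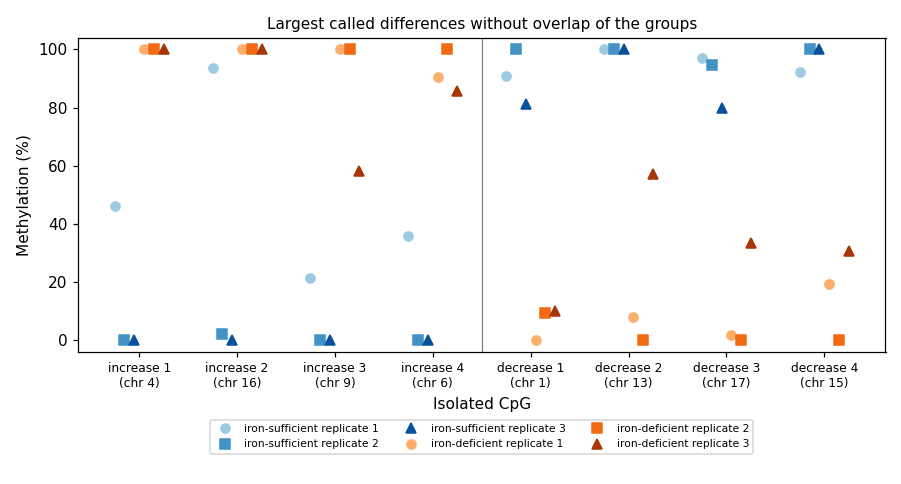
Methylation (%) in each of the 6 animals at the 4 largest increases and 4 largest decreases among called isolated CpGs whose groups do not overlap, in the order of the text. The gap between the groups is narrow at the increase on chromosome 16, where iron-sufficient replicate 1 has 93.8%, and wide at the decrease on chromosome 1, where it goes from 10% to 81.2%.

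A range of 100 percentage points was found at 801 isolated CpGs (11.7%, compared with 11.8% of the moderately spaced CpGs), in which at least 1 animal had 0% and another 100%. The groups did not overlap at 79 of these (9.86%, background 5.11%), and 47 (5.87%, background 3.21%) were called, 44 of them without overlap. The backgrounds are over all CpGs, most of which have a smaller range. The first by position, on chromosome 1 at 7525911, had 100%, 0% and 88.3% in iron-sufficient pups and 62.1%, 100% and 47.6% in iron-deficient pups, so the groups overlapped. At 11683281 the levels were 100%, 73.2% and 0% against 97.6%, 100% and 100%. At 20170877 they were 70.8%, 78.6% and 100% against 100%, 0% and 86.2%. At 18511825 they were 73.1%, 100% and 100% against 0%, 12.7% and 63.9%, and this CpG of the 4 was among those called.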

How the data were processed

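Hippocampal DNA of 3 iron-sufficient and 3 iron-deficient pups was compared. The authors sequenced bisulfite-converted libraries, removed adapter sequence and mapped the reads with BS Seeker against rn4. Where mates overlapped they used read 1, and they combined both strands of a CpG into 1 value. The deposited values per CpG are a methylated fraction and a read count (coverage), neither smoothed nor pooled. Removal of duplicate reads, and whether positions count from 0 or 1, are not given in the sources used here. Fraction times coverage was within 0.01 of a whole number at every autosomal CpG, so methylated counts were recovered. Coverage summed over the listed CpGs of chromosomes 1 to 20 was 423622584 to 764041897 per sample, where a read counts once for each CpG it covers. The median was 18 to 34 reads per CpG. Intervals and limits from counts cover counting error only.

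Analyses used Python 3.11.15, numpy 2.4.6, scipy 1.17.1, R 4.3.3 and limma 3.58.1. Each CpG counted equally in a sample's mean. Samples were compared by exact permutation tests, and single CpGs by the study's Welch test on coverage-weighted means and variances over all CpGs with coverage of at least 10 in every sample. limma on log2((methylated + 1)/(unmethylated + 1)) and a quasi-binomial model with 4 residual degrees of freedom were alternatives, as was the unweighted form. The text names the 4 largest increases and decreases without overlap, the 4 CpGs farthest from others, the 4 of lowest mean and the 4 of widest range, ties by position. The isolated CpGs, sets and tests were chosen with earlier results of these data known. Replicates are different pups by the labels. Sequences and genes around the CpGs were not analysed, since no reference of rn4 was used.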

Additional observations from a re-analysis of the deposited data

How the results depend on the processing

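The mean methylation of isolated CpGs against CpGs with a neighbour within 500 nt kept its direction and p in every alternative that used all animals, at 5.98 to 16.6 percentage points. Of 72 recomputed methylation and coverage values, 51 kept direction and side of an unadjusted p of 0.05. That is the threshold meant below, since no adjusted p passed and none could with so few animals and 10 tests. With a coverage of at least 20, the sign turned for the group difference in mean methylation (-0.0259 percentage points) and in the share under 20% (0.552), for the share under 20% against moderately spaced CpGs (0.25), for isolated CpGs beyond 1000 nt against those at up to 600 nt (-0.352) and for the log2 ratio of coverage (0.0219). Against moderately spaced CpGs, the unadjusted p of mean methylation was above 0.05 with a coverage of at least 5 (-0.0348), summed reads (-0.0395), without the top 1% of coverage (-0.144), with neighbours listed in at least 2 files (-0.155) or with coverage asked of that sample alone (-0.159, chosen after seeing the data), and it turned with isolation at 250 nt (0.464) and 1000 nt (0.142). That of the share of at least 80% was above 0.05 with a coverage of at least 5 (-0.218), isolation at 1000 nt (-0.119) or neighbours listed in at least 2 files (-0.613), and turned at 250 nt (0.272), where the share under 20% passed (-0.62). With isolation at 250 or 1000 nt the comparison sets also ended at that distance, so these values compare other sets of CpGs. At 250 nt, isolated CpGs beyond 500 nt against those at up to 350 nt gave -0.587 (p = 0.031, sign-flip permutation). The coverage ratio did not pass with isolation at 1000 nt (-0.0586). The group difference relative to other CpGs turned with summed reads (0.193) and isolation at 1000 nt (1.43). The cause was not tested.

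With each replicate left out, the group difference in mean methylation was 0.284 to 0.633 percentage points, in the share of at least 80% -1.53 to 2.76 and in the share under 20% -2.6 to 1.59. The sign of the first share turned without iron-sufficient replicate 1 (-1.53) and iron-deficient replicate 2 (-1.07), and of the second without iron-sufficient replicate 2 (1.59) and iron-deficient replicate 3 (1.14). Isolated CpGs against those with a neighbour within 500 nt gave 11.1 to 11.2, and against moderately spaced CpGs -0.264 to -0.145, with -0.757 to -0.597 for the share of at least 80% and -0.254 to 0.0189 for the share under 20%, which turned without iron-sufficient replicate 2 (0.0189). Beyond 1000 nt against up to 600 nt it was -0.316 to 0.548, below 0 without iron-deficient replicate 2 (-0.316) and 3 (-0.0281). The group difference relative to other CpGs was -0.273 to -0.0325, and the log2 coverage ratio -0.115 to -0.0926. With 5 animals the smallest p of the sign-flip test is 0.0625, so these tests could not pass.

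The 309 called isolated CpGs became 628 (4.89%) and 84 (4.09%) with coverages of at least 5 and 20, where 3.61% and 2.85% of all CpGs were called. They became 144 (2.1%, all 1.41%) with unweighted means and variances, and 2592 (4.2%) and 13 (3.46%) with isolation at 250 and 1000 nt, of 61776 and 376 CpGs (all 3.21%). Without a replicate, 295 to 335 were called (4.3% to 4.88%, against 3.29% to 3.82% of all CpGs). Adjusted calls then numbered 0 to 3, and their share over all CpGs is not given, so this count is not read as a result. Across CpGs, deviations of same-numbered animals from group means had correlations of 0.00308, 0.00206 and -0.00317. This cannot show pairing of whole libraries. With the replicate block, limma called 359 isolated CpGs (5.23%, all 4.45%) instead of 364 (5.3%, all 4.56%). The group difference in mean methylation of 0.483 percentage points then had p = 0.25 by the exact sign-flip permutation test over 3 pairs, the smallest it can give.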
